A study of Mus musculus with 4 samples.

Results

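The genes described here are 10 enzymes that carry threonine, glycine, serine and one-carbon units through the cell, namely Tdh, Gcat, Gldc, Amt, Shmt1, Shmt2, Mthfd1, Mthfd2, Phgdh and Psat1. They were taken by symbol for their place in these pathways, with earlier results of these data known, and are 10 of the 33565 genes listed in each matrix. All 10 had UMIs in each of the 3 mouse cell lines. The lines were N2a, a neuroblastoma line also called Neuro-2a, NIH/3T3, an embryonic fibroblast line, and mESCs, embryonic stem cells of the E14TG2a line. N2a and NIH/3T3 cells were grown in DMEM with 10% FBS. The mESCs were grown on gelatin in DMEM with 15% FBS, sodium pyruvate, β-mercaptoethanol, L-alanyl-L-glutamine, non-essential amino acids, leukemia inhibitory factor, 3 µM of the GSK3 inhibitor CHIR99021 and 1 µM of the MEK inhibitor PD0325901. Non-essential amino acid supplements contain glycine and serine. The amounts of both in each medium, with its DMEM base, are not given, and an effect on the enzymes was not tested. N2a and NIH/3T3 shared a medium and the mESCs had their own, so line and medium cannot be told apart where mESCs are compared with the other lines.

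Serine is made from a glycolytic intermediate by a short pathway that begins with phosphoglycerate dehydrogenase, encoded by Phgdh, and continues with the aminotransferase encoded by Psat1. Serine hydroxymethyltransferases (Shmt1 in the cytosol, Shmt2 in mitochondria) convert serine to glycine and pass a carbon to tetrahydrofolate. A further source of glycine and of one-carbon units is threonine, which mouse cells oxidize in mitochondria through threonine dehydrogenase (Tdh) and the ligase encoded by Gcat. The glycine cleavage system, which includes Gldc and Amt, breaks glycine down and loads its carbon onto folate. The folate enzymes Mthfd1 (cytosol) and Mthfd2 (mitochondria) interconvert the loaded forms, which feed the synthesis of purines, thymidylate and methionine. Mouse embryonic stem cells are known for their dependence on threonine and for high threonine dehydrogenase.

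Each line was measured in 1 CapSeq library fraction, separated from the pooled library by the well of the first barcoding round (BC1). Barcodes were used as cells where they held 1000 UMIs or more, of which mitochondrial genes made up 20% or less. This gave 2323 N2a cells with 17955221 UMIs, 2037 NIH/3T3 cells with 11697865 UMIs and 2137 mESCs with 12322098 UMIs. The median number of UMIs per cell was 6185, 4863 and 4803 in the same order. The matrices of the lines shared 0 cell barcodes, but each barcode includes its BC1 sequence. The split by BC1 fixes this value in advance, so it is no check on mixing between lines. Levels are UMIs summed over the cells of a line and scaled to the same total in each line, as CPM, with 95% exact Poisson intervals that cover counting error only. There were no replicate libraries, so no test between lines was made. Line markers mostly followed the labels. Zfp42 was at 1318 CPM in mESCs and at 0.78 and 1.20 in N2a and NIH/3T3, Col1a2 was at 460.6 CPM in NIH/3T3 and below 1 CPM in the other lines, and Hand2 was at 404.2 CPM in N2a. Lgals1 and S100a6 from the fibroblast list were also high in N2a (459.3 and 738.4 CPM), and the sympathetic genes Dbh and Th had only 0.89 and 4.96 CPM there.

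The genes lie on different chromosomes, apart from Gldc and Psat1, which are both on chromosome 19. Tdh is on chromosome 14 from 63724585 to 63751098 on the minus strand of GRCm39, and Phgdh on chromosome 3 from 98220484 to 98255047, also on the minus strand. Reference promoters of RefSeq on GRCm38.p6, from 250 bases before to 50 bases after the transcript start, were found for 9 of the 10 genes (10 promoters, as Psat1 has a pair), with none for Tdh. They were searched on both strands for 2 motifs. TGATGNAA, a composite element bound by ATF4 with C/EBP proteins, was in 0 of the 10 promoters and in 3.97% of all 32851. The E-box CACGTG, which Myc, Usf and related factors can bind, was in 1 of the 10 and in 7.15% of all. The promoter that held it was that of Gcat, and the 30 bases around it are shown because Gcat was the enzyme of the set with the clearest excess in NIH/3T3. The window is chr15:79030864-79030893 on the plus strand, and the capitals mark the E-box, which begins at the third transcribed base.
Gcat: ccctgcccacgtCACGTGacggggagcact
A match is a description of these letters, and binding was not measured.

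In the mESCs, Tdh, Gldc and Amt stood far above the other lines, Mthfd1 was also highest there, and Phgdh and Shmt2 were lowest. Mthfd2 was highest in N2a, and Gcat, Shmt2, Phgdh and Psat1 were highest in NIH/3T3. Of those highest in NIH/3T3, only Gcat was at least 2-fold above both other lines. The mESCs had the highest level for 5 of the 10 genes, NIH/3T3 for 4 and N2a for 1. The highest line was separated from the next by its interval for each gene, whereas the intervals of the lower pair of lines overlapped for Tdh, Amt, Mthfd2 and Psat1.

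**Figure D1:**
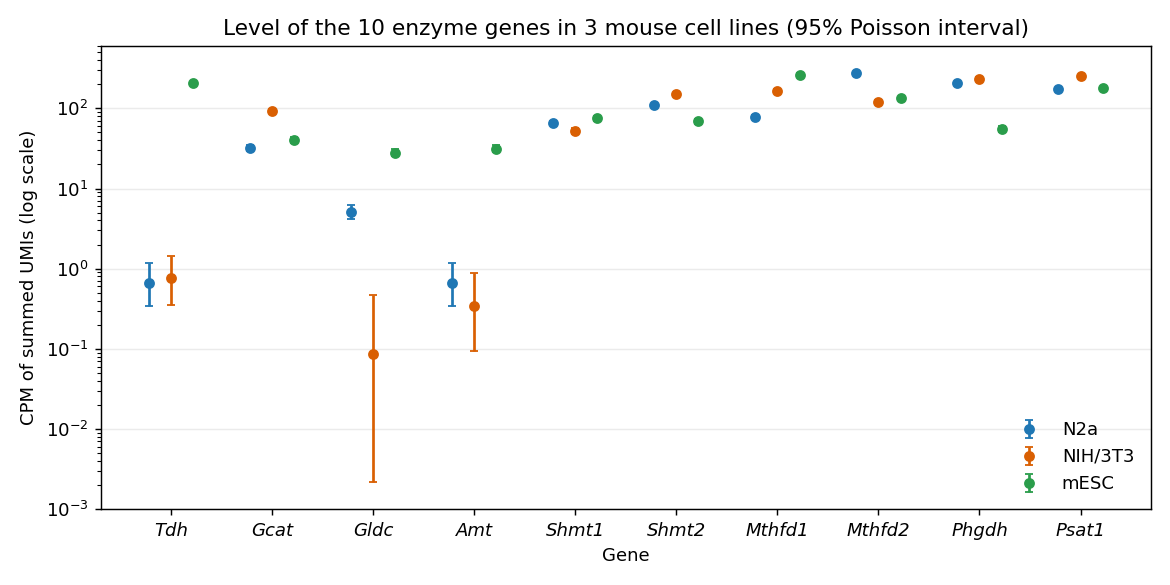
Level of each gene in the 3 lines in CPM on a log axis, with 95% exact Poisson intervals that cover counting error only. Tdh, Gldc and Amt separate the mESCs from the other lines, whereas the remaining 7 genes lie between 31.7 and 278.9 CPM in every line.

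By its ratio to the next line, the threonine dehydrogenase gene was the most line-restricted of the 10. Tdh had 2552 UMIs in mESCs, 12 in N2a and 9 in NIH/3T3, which is 207.1 CPM (199.1 to 215.3), 0.67 CPM (0.34 to 1.17) and 0.77 CPM (0.35 to 1.46). The level in mESCs was 310 times that in N2a (177 to 601) and 269 times that in NIH/3T3 (142 to 589). The N2a and NIH/3T3 intervals overlap, and their order was not resolved at this depth. No N2a or NIH/3T3 cell had more than 1 Tdh UMI, whereas an mESC had up to 12. The low values were also set beside those of mESC markers, since transcripts of one line can be counted under barcodes of another. Tdh in N2a was 0.32% of its mESC level (0.17% to 0.57%) and in NIH/3T3 0.37% (0.17% to 0.71%). For the 6 mESC markers, the same share ranged from 0.06% (Zfp42) to 0.50% (Esrrb) in N2a and from 0.09% (Zfp42) to 0.62% (Dppa5a) in NIH/3T3. The Tdh shares of both lines thus lie within the range of the markers. Their intervals lie above those of Zfp42, the lowest marker (0.03% to 0.10% in N2a and 0.05% to 0.15% in NIH/3T3). Whether the few Tdh UMIs are background or low expression was not tested.

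Gcat, which completes threonine breakdown by joining the product of Tdh to coenzyme A with release of glycine, did not share this pattern. Its level in NIH/3T3 was 93.7 CPM (88.2 to 99.4), beside 40.7 (37.3 to 44.5) in mESCs and 31.7 (29.1 to 34.4) in N2a. NIH/3T3 was 2.96 times N2a (2.67 to 3.28) and 2.30 times the mESCs (2.07 to 2.56), while mESCs were 1.29 times N2a (1.14 to 1.45). NIH/3T3, with Tdh at 0.77 CPM, therefore had the most Gcat. A further gene of the same name overlaps Gcat in GENCODE M39 and was not among the counted genes. The other enzymes of the threonine list, Tha1, Sds and Sdsl, stayed below 10 CPM in every line, with the highest value at 5.46 CPM for the threonine aldolase gene Tha1 in N2a.

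Of the glycine cleavage system, 2 of the 4 genes (Gldc and Amt) were at least 2-fold higher in mESCs than in either other line. Gldc, the glycine decarboxylase, had 346 UMIs in mESCs (28.1 CPM, 25.2 to 31.2), 92 in N2a (5.12 CPM, 4.13 to 6.28) and 1 in NIH/3T3 (0.09 CPM, 0.002 to 0.48). The mESC level was 5.48 times that of N2a (4.34 to 6.97) and 328 times that of NIH/3T3, with an interval of 58.6 to 13011 because a single UMI stands in the denominator. Gldc in N2a was 18.2% of its mESC level (14.3% to 23.0%), far above the share of any of the 6 mESC markers, so it was not read as background. The order of the lines was mESC, N2a and NIH/3T3, with no overlap of the intervals.

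Amt, the aminomethyltransferase that works beside Gldc, had 387 UMIs in mESCs (31.4 CPM, 28.4 to 34.7), 12 in N2a (0.67 CPM, 0.34 to 1.17) and 4 in NIH/3T3 (0.34 CPM, 0.09 to 0.88). The mESCs were 47.0 times N2a (26.6 to 91.7) and 91.8 times NIH/3T3 (35.6 to 339). Amt in N2a was 2.13% of its mESC level (1.09% to 3.76%), an interval that lies above the shares of all 6 markers in that line. In NIH/3T3 the share was 1.09% (0.30% to 2.81%), an interval that includes the shares of Dppa5a, Esrrb and Klf2. The remaining components differed by less than 2-fold between lines. Gcsh, the lipoyl carrier, was at 125.0 CPM in mESCs, 112.3 in N2a and 88.4 in NIH/3T3. Dld, the dehydrogenase also used by other mitochondrial complexes, was at 64.9, 83.0 and 126.2 CPM in the same order.

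Of the serine synthesis genes, Phgdh and Psph were lowest in mESCs and Psat1 was highest in NIH/3T3. Phgdh had 682 UMIs in mESCs (55.3 CPM, 51.3 to 59.7), 3685 in N2a (205.2 CPM, 198.7 to 212.0) and 2745 in NIH/3T3 (234.7 CPM, 226.0 to 243.6). N2a was 3.71 times the mESCs (3.42 to 4.03) and NIH/3T3 4.24 times (3.90 to 4.62), while NIH/3T3 and N2a differed by a ratio of 1.14 (1.09 to 1.20). Psat1, the next enzyme of the pathway, was highest in NIH/3T3 at 252.0 CPM (243.0 to 261.3), with mESCs at 178.4 (171.0 to 186.0) and N2a at 175.4 (169.4 to 181.7). Psat1 of mESCs and N2a was not distinguishable at this depth, with a ratio of 1.02 (0.96 to 1.07). Psph, the phosphatase of the last step, was at 97.0 CPM in N2a, beside 144.1 in NIH/3T3 and 60.9 in mESCs, and its mESC level was 0.42 times that of NIH/3T3 (0.39 to 0.46). In the mESCs a Phgdh level below that of both other lines was thus found beside a Psat1 level within the counting error of N2a.

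The serine hydroxymethyltransferases were ordered in opposite ways. Shmt1 was at 75.2 CPM (70.5 to 80.2) in mESCs, 65.8 (62.1 to 69.7) in N2a and 52.5 (48.4 to 56.8) in NIH/3T3, and the largest ratio between lines was 1.43 (1.29 to 1.59). Shmt1 shares its locus with Top3a on the same strand and Smcr8 on the opposite strand, and both of these were counted, at 22.4 to 43.9 CPM. Shmt2 was at 149.3 CPM (142.3 to 156.4) in NIH/3T3, 109.4 (104.6 to 114.3) in N2a and 68.8 (64.3 to 73.6) in mESCs. The mESCs therefore had the most Shmt1 and the least Shmt2 transcript of the 3 lines, and enzyme amounts were not measured. The Shmt1 excess over N2a was small, at a ratio of 1.14 (1.05 to 1.25). NIH/3T3 was at 2.17 times the mESC level of Shmt2 (2.00 to 2.36).

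Of the folate dehydrogenases, N2a was lowest for Mthfd1 and highest for Mthfd2. Mthfd1 was at 263.3 CPM (254.3 to 272.5) in mESCs, 166.0 (158.7 to 173.6) in NIH/3T3 and 78.1 (74.0 to 82.3) in N2a, a ratio of 3.37 (3.17 to 3.59) between mESCs and N2a. Mthfd2 was at 278.9 CPM (271.2 to 286.7) in N2a, 133.4 (127.0 to 140.0) in mESCs and 121.4 (115.2 to 127.9) in NIH/3T3. N2a was 2.09 times the mESCs (1.98 to 2.21) and 2.30 times NIH/3T3 (2.16 to 2.44). The Mthfd2 levels of mESCs and NIH/3T3 differed by a ratio of 1.10 (1.02 to 1.18).

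To set these differences against the whole transcriptome, a gene was counted as higher when its ratio of CPM + 1 was at least 2, among genes with at least 10 CPM in either line. Between mESCs and N2a, 4 of the 10 enzymes were higher in mESCs (Tdh, Amt, Gldc and Mthfd1), where 19.3% of all genes were, and 2 were higher in N2a (Phgdh and Mthfd2), where 21.7% were. Between mESCs and NIH/3T3, 3 were higher in mESCs (Tdh, Gldc and Amt) beside 20% of all genes, and 3 in NIH/3T3 (Phgdh, Gcat and Shmt2) beside 21.6%. Only 7 of the 10 reached 10 CPM in N2a or NIH/3T3. Of these, Mthfd2 was higher in N2a beside 18.1% of all genes, and Gcat and Mthfd1 were higher in NIH/3T3 beside 17.9%. The median log2 ratio of the 10 enzymes was 0.27 for mESCs over N2a and 0.32 for mESCs over NIH/3T3, beside −0.05 and −0.05 for all genes tested. The enzymes were in both directions in each comparison, and the 3 comparisons share their lines and are not independent.

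BC1 sequences gave a view of the spread within each line. Each line occupied 32 of them, with 33 to 102 cells each. They are parts of one library and no replicates of the line. In mESCs, Tdh ranged from 145.4 to 287.2 CPM over the BC1 sequences with a median of 209.9, whereas the highest value of any BC1 sequence was 4.57 CPM in N2a and 6.02 CPM in NIH/3T3. Phgdh in mESCs ranged from 31.0 to 86.5 CPM (median 53.8), below the lowest value of N2a (164.5) and of NIH/3T3 (180.4). Mthfd1 ranged from 191.1 to 313.6 CPM in mESCs and from 52.7 to 106.0 in N2a. Mthfd2 ranged from 214.9 to 355.3 CPM in N2a, above the highest values of mESCs (185.0) and NIH/3T3 (161.3). Amt in mESCs ranged from 7.22 to 56.9 CPM, above every BC1 sequence of N2a (at most 3.60) and NIH/3T3 (at most 3.23). For Gldc, the mESC range of 9.91 to 48.8 CPM overlapped that of N2a, which reached 13.0, and was above that of NIH/3T3. The ranges of Gcat, Shmt1, Shmt2 and Psat1 overlapped between every pair of lines, although the Gcat medians were 95.7 CPM in NIH/3T3 and 33.6 in N2a. The chi-square of the counts over its degrees of freedom, which is near 1 when only counting error is present, was at most 2.03, for Mthfd2 in N2a (2.03), Shmt1 in N2a (2.01), Psat1 in mESCs (1.97), Mthfd2 in mESCs (1.93) and Tdh in mESCs (1.91).

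**Figure D2:**
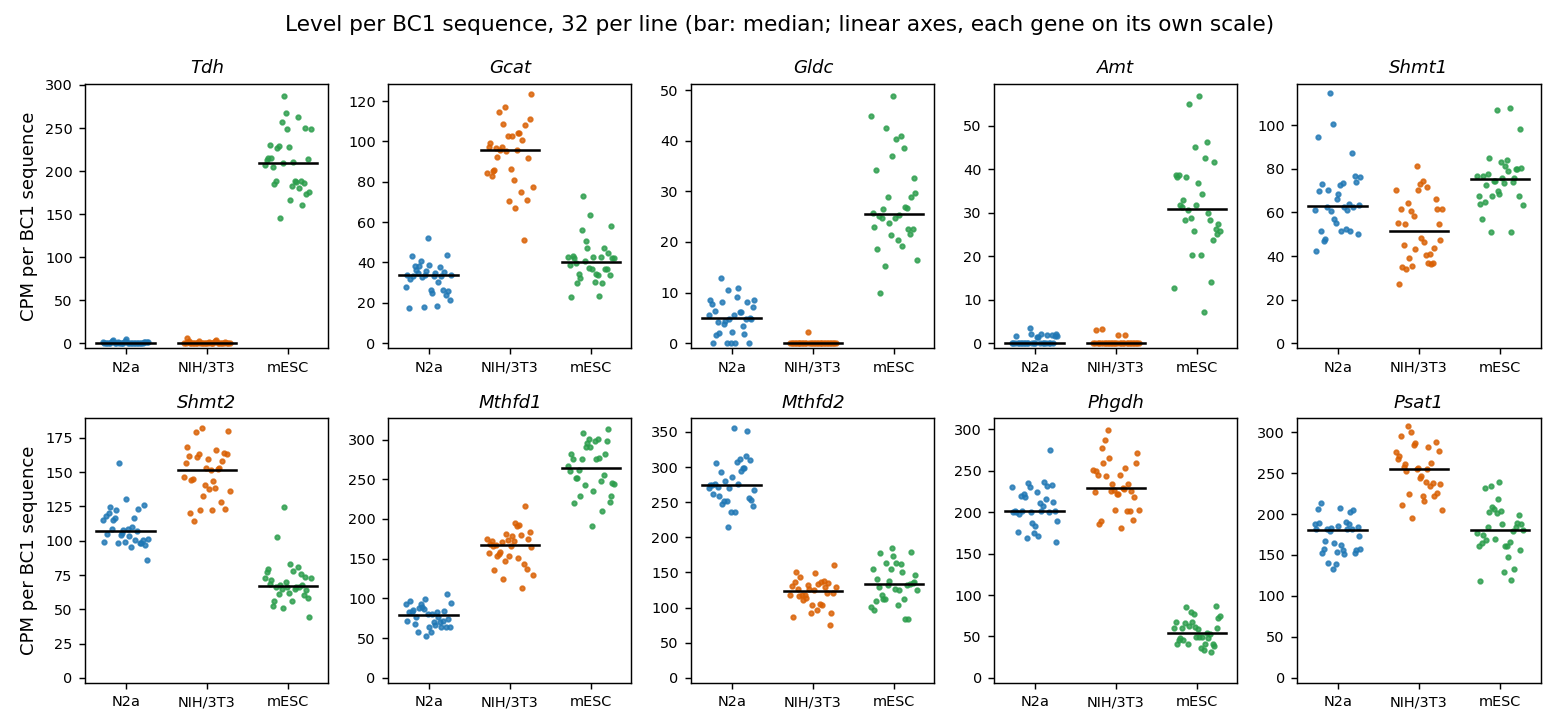
CPM of each gene in each of the 32 BC1 sequences per line (points) with the median (bar), on linear axes that differ between genes. The Tdh, Amt and Phgdh points of the mESCs lie apart from those of the other lines, and the Shmt1 and Psat1 points overlap.

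At the level of single cells, 56.9% of mESCs had at least 1 Tdh UMI (95% exact binomial interval 54.8% to 59.0%), beside 0.52% (0.27% to 0.90%) of N2a cells and 0.44% (0.20% to 0.84%) of NIH/3T3 cells. These shares depend on depth. With each cell thinned by a random draw of 1000 of its UMIs, 17.8% of mESCs (16.2% to 19.5%) had a Tdh UMI, and 1 cell in each of the other lines. The thinned share was close to the 18.6% that a Poisson law with the same mean gives, and the variance of Tdh UMIs over the thinned mESCs was 1.08 times their mean. Gldc and Amt were detected after thinning in 3.46% and 3.23% of mESCs, beside Poisson shares of 3.45% and 3.36%. Among the 10 enzymes in the 3 lines, the highest thinned shares were 24.2% for Mthfd1 in mESCs (22.4% to 26.1%) and 23.3% for Mthfd2 in N2a (21.6% to 25.1%), with intervals that overlap. Without thinning, Phgdh was found in 66.9% of N2a cells, 63.6% of NIH/3T3 cells and 24.3% of mESCs, and Mthfd1 in 39.9%, 52.6% and 68.5%.

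**Figure D3:**
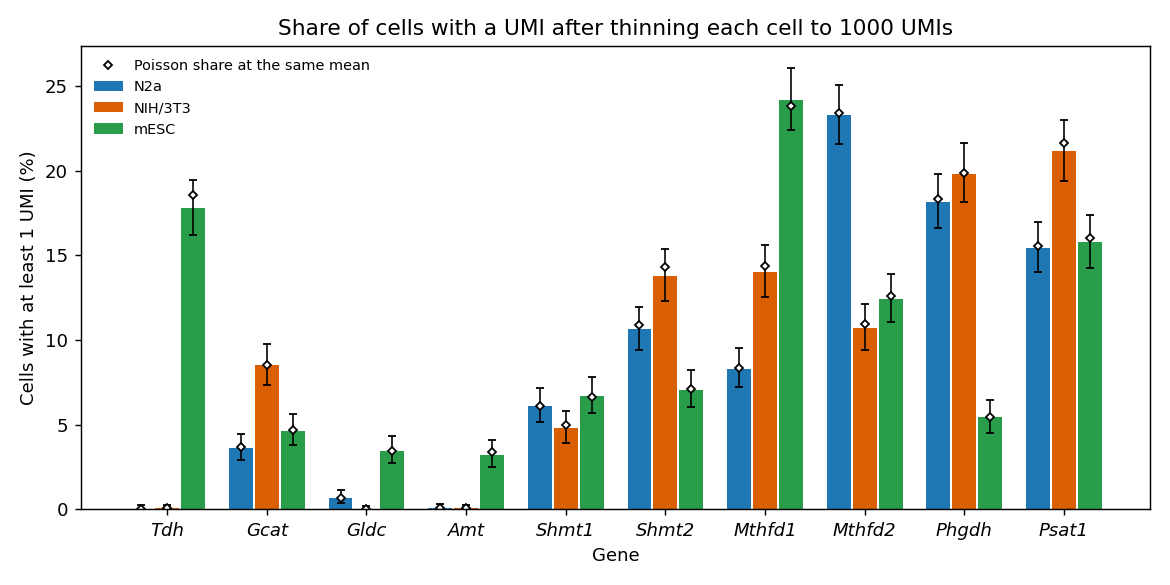
Percent of cells with at least 1 UMI of each gene with 1000 UMIs drawn per cell (bars) with 95% exact binomial intervals, and the share given by a Poisson law with the same mean (diamonds). Each diamond lies inside the interval of its bar where the gene was detected, for example 18.6% beside 17.8% for Tdh in mESCs. At low means the diamond and the bar can hardly differ, so their closeness does not show an even spread over cells.

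Folate enzymes serve DNA synthesis, so levels were compared within each line between the 20% of cells with the largest share of UMIs from 37 S-phase genes and the remaining cells with at least 2000 UMIs. Tyms, the thymidylate synthase, was kept out of that gene list and serves as a reference. Tyms was 1.46 times higher in the S-high cells of N2a (1.33 to 1.61), 1.36 times in NIH/3T3 (1.20 to 1.54) and 1.06 times in mESCs (0.95 to 1.19). The Tyms ratio was thus nearest to 1 in mESCs, where 24.3% of cells lay within 10% of the threshold, beside 12.3% in N2a and 18.5% in NIH/3T3. In N2a, Shmt1 was 1.30 times higher in S-high cells (1.13 to 1.49), Mthfd1 1.17 times (1.03 to 1.34) and Mthfd2 1.10 times (1.03 to 1.18), whereas Shmt2 was lower, at 0.84 times (0.74 to 0.95). In NIH/3T3, the interval of every enzyme included 1, with Shmt1 at 1.16 (0.95 to 1.42) and Mthfd1 at 1.06 (0.94 to 1.18). In mESCs, Tdh had the only interval above 1, with 226.1 CPM in S-high cells and 203.3 in the others, a ratio of 1.11 (1.01 to 1.23). Phgdh and Psat1 were between 0.96 and 1.06 in all lines, with intervals that include 1. These statements on NIH/3T3, mESCs and Phgdh hold for this split alone. With a wider S-high group of 690 cells in N2a, 592 in NIH/3T3 and 621 mESCs (in place of 414, 355 and 373), the intervals in NIH/3T3 were above 1 for Shmt1 at 1.33 (1.13 to 1.58), Mthfd1 at 1.12 (1.01 to 1.23) and Phgdh at 1.11 (1.03 to 1.21). In mESCs, those of Shmt1 at 1.27 (1.10 to 1.45) and Mthfd1 at 1.09 (1.01 to 1.18) were then above 1 beside that of Tdh at 1.15 (1.06 to 1.25). In N2a, Shmt1, Mthfd1 and Mthfd2 stayed above 1 and Shmt2 below it. Whether the ratios differ between lines was not tested. The intervals cover counting error only, and no correction was made for the number of ratios examined. Over BC1 sequences, the counts of Tdh in mESCs and of Shmt1 and Mthfd2 in N2a spread more than counting error alone gives. Their chi-square over degrees of freedom was 1.91, 2.01 and 2.03, so intervals that only just exclude 1 may be too narrow.

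**Figure D4:**
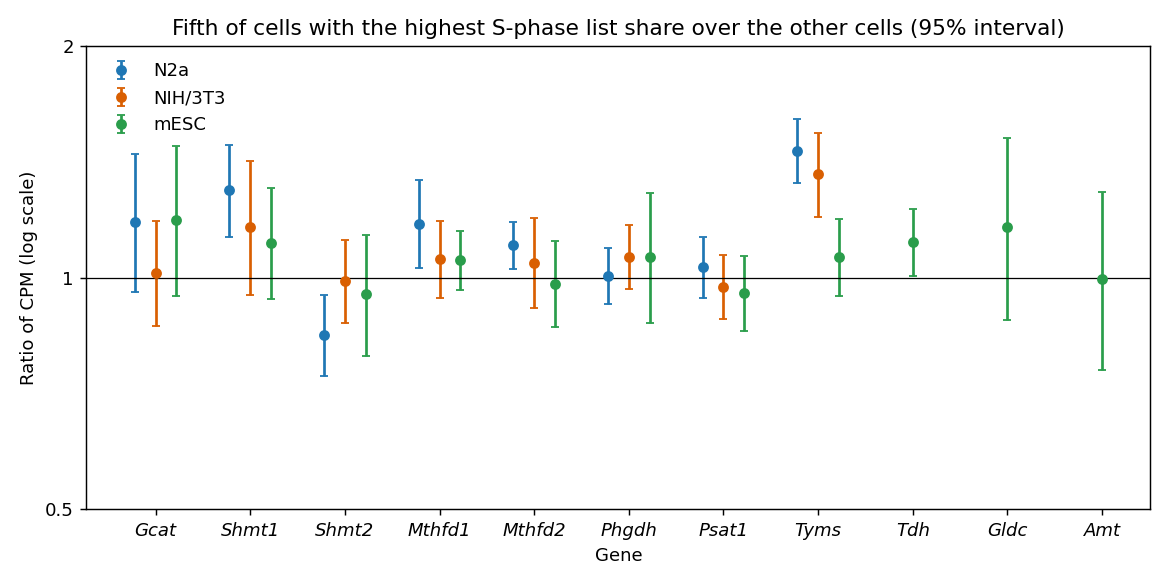
Ratio of CPM in the 20% of cells with the highest S-phase share over the other cells of the same line, on a log axis with 95% intervals for counting error. Tyms reaches 1.46 in N2a, whereas the enzymes of the set lie between 0.84 and 1.30. Tdh, Gldc and Amt are drawn for mESCs only.

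Within the mESCs, Tdh was lower in a pair of small subsets. In 78 cells with 3 or more UMIs of 8 genes of the 2-cell stage, Tdh was at 85.6 CPM (58.5 to 120.8), beside 210.9 (202.8 to 219.3) in the other 2059 cells, a ratio of 0.41 (0.28 to 0.57). Among cells with at least 5000 UMIs, the 17 with at most 1 Zfp42 UMI had 10 Tdh UMIs, or 91.2 CPM (43.7 to 167.7), beside 211.8 CPM in the other 1003, a ratio of 0.43 (0.21 to 0.79). Of the other enzymes, Shmt1 (2 UMIs), Mthfd2 (7 UMIs) and Psat1 (10 UMIs) were also lower in these 17 cells. Their ratios were 0.23 (0.03 to 0.85), 0.48 (0.19 to 0.98) and 0.51 (0.24 to 0.93). The intervals of Gcat, Gldc, Amt, Shmt2, Mthfd1 and Phgdh included 1. Among these, Shmt2 was at 0.40 (0.08 to 1.18), Mthfd1 at 1.09 (0.74 to 1.55) and Amt at 1.10 (0.30 to 2.86). Of the mESC markers other than Zfp42, Esrrb, Klf2, Dppa5a and Tdgf1 were also lower in these 17 cells. Their ratios were 0.55 (0.34 to 0.83), 0.58 (0.35 to 0.91), 0.68 (0.57 to 0.80) and 0.55 (0.37 to 0.79). Pou5f1, with 3 UMIs there, was at 0.47 (0.10 to 1.38), an interval that includes 1. In the 2-cell-like cells, Zfp42 was lower, at 844.9 CPM beside 1333, whereas Pou5f1 was at a ratio of 0.97 (0.60 to 1.50). The other markers were not compared in that subset. Gldc was at 26.7 CPM (12.8 to 49.2) in the 2-cell-like cells and 28.1 in the others, Amt at 37.4 (20.5 to 62.8) and 31.2, and Mthfd1 at 267.4 (217.5 to 325.2) and 263.1, so that no difference was detectable for these genes. Psat1 was lower in the same cells, at 131.0 CPM (96.9 to 173.2) beside 179.9, a ratio of 0.73 (0.54 to 0.97). The 2-cell-like cells had a median of 3881 UMIs and the others 4845, the 17 cells with little Zfp42 had 5480 and the cells they were set against 7766, and the part of depth in these values was not tested.

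Beyond the 10 enzymes, 49 further genes of the serine, glycine cleavage, threonine, folate, methionine, transport and ATF4 lists were examined. Between mESCs and N2a, 5 of the 40 that reached 10 CPM were higher in mESCs and 9 in N2a, beside 19.3% and 21.7% of all genes. Between mESCs and NIH/3T3, 5 of 41 were higher in mESCs and 11 in NIH/3T3, beside 20% and 21.6% of all genes. Between N2a and NIH/3T3, 7 of 41 were higher in N2a and 5 in NIH/3T3, beside 18.1% and 17.9% of all genes.

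In the methionine list, Bhmt, which uses betaine to remethylate homocysteine, had 815 UMIs in mESCs (66.1 CPM), 3 in N2a and 1 in NIH/3T3. The ratio of mESCs to N2a was 396 (135 to 1924) and to NIH/3T3 774 (138 to 30597). Mtr, the folate-dependent enzyme for the same step, was at 97.3 CPM in mESCs, 56.1 in N2a and 49.3 in NIH/3T3, which was below 2-fold in each comparison. Cth, which makes cysteine from cystathionine, was at 67.0 CPM in mESCs, 6.29 in N2a and 16.4 in NIH/3T3. Cbs, the enzyme before it, was instead highest in N2a, at 32.4 CPM beside 9.58 in mESCs and 0.34 in NIH/3T3. Mtap, which salvages methionine from methylthioadenosine, was at 480.7 CPM in NIH/3T3, 5.73 times N2a (5.41 to 6.07) and 5.72 times the mESCs (5.35 to 6.12).

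In the folate list of 16 genes, 14 reached 10 CPM. The formyl-tetrahydrofolate dehydrogenase of mitochondria, Aldh1l2, was at 2.27 CPM in mESCs, 55.7 in N2a and 91.0 in NIH/3T3, and Mthfd2l at 4.54, 23.8 and 28.6. Mthfd1l, the mitochondrial formate-releasing enzyme, was also lowest in mESCs, by less than 2-fold, at 198.5 CPM beside 364.7 in N2a and 272.9 in NIH/3T3. These 3 genes thus had the same lowest line as Shmt2. Mthfd2 did not follow it, as given above. Nor did Mtfmt of the same list, which was highest in mESCs, at 14.1 CPM beside 9.64 in N2a and 11.4 in NIH/3T3. Tyms (154.0 CPM in mESCs, 128.2 in N2a and 120.1 in NIH/3T3) differed by less than 2-fold. Ggh, the hydrolase of folate polyglutamates, was at 13.1 CPM in mESCs, 10.7 in NIH/3T3 and 0.33 in N2a.

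In the transport list, Folr1, a folate receptor, was at 137.0 CPM in mESCs, 18.2 in N2a and 1.03 in NIH/3T3. The mESC level was 7.52 times that of N2a (6.68 to 8.49) and 134 times that of NIH/3T3 (76.2 to 259). Slc19a1, the reduced folate carrier, was instead lowest in mESCs, at 8.85 CPM in mESCs, 56.9 in N2a and 33.5 in NIH/3T3. Slc6a9, a glycine transporter, was also lowest in mESCs (3.00 CPM, beside 23.0 in N2a and 43.9 in NIH/3T3). Slc7a5, which carries large neutral amino acids, was at 228.2 CPM in N2a, 4.22 times NIH/3T3 (3.88 to 4.60) and 3.10 times the mESCs (2.88 to 3.34).

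Genes of serine synthesis and Mthfd2 are known targets of ATF4, a factor induced by amino acid shortage. Atf4 itself was at 237.2 CPM in mESCs, 414.4 in N2a and 363.1 in NIH/3T3. Of the other genes of that list, Slc7a11, the cystine transporter, was at 2.43, 61.8 and 19.7 CPM in the same order and the stress gene Ddit3 at 9.58, 71.5 and 22.2. Asns, the asparagine synthetase, went the other way, with 384.0 CPM in mESCs, 330.3 in N2a and 168.0 in NIH/3T3, as did Sesn2 with 78.6, 65.7 and 19.4. The ATF4 list was therefore not uniformly lower in mESCs, with 0 of its 9 genes at least 2-fold higher in mESCs than in N2a, 2 in the reverse direction and 7 between, beside 19.3% and 21.7% of all genes in the same directions. Against NIH/3T3, 2 of the 9 were higher in mESCs, 2 were higher in NIH/3T3 and 5 lay between, beside 20% and 21.6% of all genes.

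**Figure D5:**
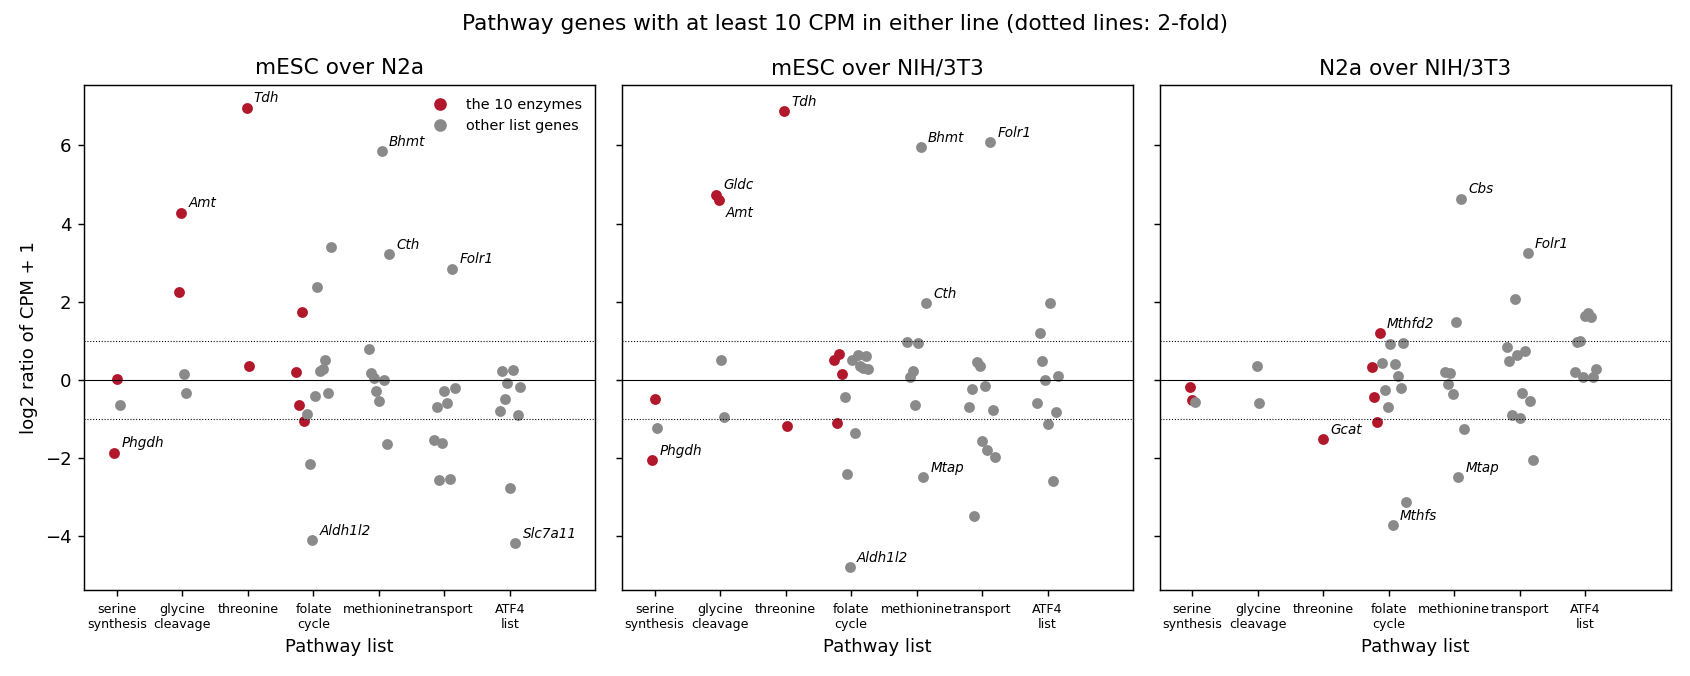
Log2 ratio of CPM + 1 for each gene of the pathway lists with at least 10 CPM in either line, in 3 comparisons, with the 10 enzymes in red and dotted lines at 2-fold. Tdh (6.96 and 6.88) is at the top of both mESC comparisons, followed by Bhmt (5.85) against N2a and by Folr1 (6.09) and Bhmt (5.95) against NIH/3T3, and Aldh1l2 is near the bottom of both.

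Among 6372 genes with at least 50 CPM in any line, those nearest to Tdh in centred log2(CPM + 1) over the 3 lines were Vegfc (0.17, 0.17 and 140.1 CPM in N2a, NIH/3T3 and mESCs), Rbpms2 (0.50, 0.68 and 194.2) and Fgf4 (0.39, 0.34 and 160.3), at Euclidean distances of 0.06, 0.06 and 0.10. Nearest to Gldc were Pawr, Phc1 and Dppa2, at 0.25, 0.25 and 0.33, and nearest to Phgdh were Serinc1, Acsl4 and Mrps6, at 0.03, 0.04 and 0.05. Serinc1 was at 175.9, 207.0 and 47.6 CPM, beside 205.2, 234.7 and 55.3 for Phgdh. With 3 lines, many genes can be this near, and the likeness is a description only.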

How the data were processed

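The data came from 1 CapSeq library of N2a, NIH/3T3 and mESC cells, with 1 library fraction per line. As the study's methods describe, the author converted sequencing data to FASTQ files, split reads by BC1, trimmed the template switching oligo with Cutadapt, and aligned and counted reads with STARsolo on GRCm39. The matrices the authors deposited hold whole UMI counts for each gene in each barcode, unfiltered and not normalized. The feature mode and the strand setting are not given in the sources used here, so reads of overlapping genes cannot be told apart by strand. Rows that share a symbol were summed for list genes (Ddit3).

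From these counts, barcodes with 1000 UMIs or more and no more than 20% mitochondrial UMIs were kept as cells, no doublet caller was run, and UMIs were summed per line and scaled to CPM. Intervals at the 95% level are exact Poisson for levels, exact conditional for ratios and exact binomial for shares. PCR and capture error is not covered. A count of 0 was taken to allow 3 counts (0.17 to 0.26 CPM). Thinning used a seeded draw of 1000 UMIs per cell. The tools were scipy 1.17.1, numpy 2.4.6, matplotlib 3.10.9 and pandas 2.3.3 under Python 3.11.15, with edgeR 4.0.16 and DESeq2 1.42.0 under R 4.3.3 for scaling factors only. Calls and intervals were tested on simulated Poisson counts. These hold no spread beyond counting error, so that test cannot show how well the intervals cover the spread in these data. Positions came from GENCODE M39, in which 32953 of the 33565 gene identifiers were found.

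The enzymes and all lists were chosen with earlier results of these data known. Named genes were the 10 enzymes, line markers, up to 12 list genes with a 4-fold difference and 50 CPM in one line, and the 3 nearest genes of Tdh, Gldc and Phgdh. Further list genes were named after their values were seen. The levels of 2 list genes are not reported here. The alternatives changed the cell filter, barcodes, matrix, scaling, pseudocount, low-count filter, thinning and S-phase split.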

Additional observations from a re-analysis of the deposited data

How the results depend on the processing

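The numbers of enzymes at least 2-fold higher were recomputed under 16 alternatives. For mESCs over N2a (4), N2a over mESCs (2), mESCs over NIH/3T3 (3), NIH/3T3 over mESCs (3) and NIH/3T3 over N2a (2) they stayed within 1.5 times of these values. For N2a over NIH/3T3 the number went from 1 to 2 with a filter of 1 CPM or with no filter, because Gldc (5.12 and 0.09 CPM) then entered. Over all genes, a filter of 1 CPM and no filter gave 3647 genes higher in mESCs than in N2a (2043 at 10 CPM), 3456 in the reverse direction (2300), 4199 for mESCs over NIH/3T3 (2107), 3361 for N2a over NIH/3T3 (1893) and 2826 for NIH/3T3 over N2a (1868). The pseudocount moved the log2 ratio of genes with few UMIs most, with Gldc in mESCs over NIH/3T3 going from 4.74 to 7.25 at a pseudocount of 0.1 CPM and staying above 2-fold at 5 CPM, Gldc in N2a over NIH/3T3 between 0.99 (below 2-fold, at a pseudocount of 5 CPM) and 4.82, Tdh in mESCs over N2a between 5.23 and 8.08 and Amt in mESCs over NIH/3T3 between 2.77 and 6.16. Phgdh stayed between −1.94 and −1.80 in mESCs over N2a. No ratio at least 2-fold changed its sign in these alternatives. No paired analysis was possible because each line had 1 library.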
